A study of Bos taurus with 6 samples.

Results

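The newly predicted miRNAs of 18 nt are the rows of the deposited count table whose name marks them as predicted by the authors (as in novel229_mature) and whose listed sequence is 18 nt long. They are 158 of the 347 newly predicted miRNAs (45.5%) and of the 706 miRNAs in the table (22.4%). The measurements come from extracellular vesicles (EVs), small membrane-bound particles that cells release, isolated from the serum of 6 female Holstein cows in mid lactation. The 3 control cows ate a total mixed ration (TMR) based on corn silage and alfalfa hay. The ration of the 3 tested cows held less of both, and contained soybean hull and whole cotton seed, which that of the control cows lacked. Blood was taken on day 30, and 1 small RNA library was made per cow. Serum EVs come from many tissues, and less RNA per vesicle cannot be told apart from fewer vesicles. The tables hold miRNAs only, so no EV marker protein could be checked.

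A miRNA is cut from a hairpin precursor and guides a silencing complex to messenger RNAs, mainly by pairing through its seed, bases 2 to 8 from the 5′ end. Programs such as miRDeep2 predict unlisted miRNAs from reads that stack on a genomic stretch able to fold into a hairpin, and such rows have no assigned function. Serum also carries pieces of transfer RNA, ribosomal RNA and other small RNAs, and very short sequences can match several places in a genome. The label of these rows, a miRNA, is therefore the authors' prediction, and no hairpin or genome position of theirs was used here.

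The 10 leading rows, ranked by their mean share of all miRNA counts over the 6 libraries, are shown because they carry most of the counts described here. The sequences are those of the deposited table, which writes T for U, and the capitals mark the seed.
novel229_mature: gGAAGGCCggcgggggag
novel314_mature: gATGGCAGgggccccggg
novel159_mature: gGGGGGTCggggcggggc
novel45_mature: gGTGGCGGggggaggtct
novel126_mature: gGCTGGCAggggccccgg
novel24_mature: tGGCCAGActtgggcccg
novel343_mature: aTCCCACTcctgacacca
novel258_mature: gGAAGGGGcacatggcgg
novel354_mature: gGATGTAGctcagatggt
novel142_mature: gTCTGAGGctggaggatc
All 10 have different seeds, and 8 of them begin with G.

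G and C made up most of these sequences. The median G+C content of the 158 rows was 66.7%, against 63.2% in the newly predicted miRNAs of 19 to 20 nt, 60.0% in those of 21 to 25 nt and 45.8% in the known miRNAs. A and T each had a median share of 11.1% of the bases, against 22.7% and 27.3% in the known miRNAs, and G had the highest median share of the 4 bases. The first base was G in 73 of the 158 rows (46.2%), whereas 32 of the 359 known miRNAs (8.91%) began with G and 164 (45.7%) with T. A run of GGGG in the listed strand was found in 70 of the 158 rows (44.3%), and in 144 of all 706 (20.4%). Its reverse complement was present in 19 of the 158. Weighted by counts, the G+C content of the 18-nt rows was 79.1%, and 4 of the 5 leading rows have more than 80%. The 51 rows with at least 80% G+C held 58.1% of the 18-nt counts.

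The 158 rows together held 121965 counts, 1.10% of all miRNA counts and 35.3% of the counts on newly predicted miRNAs. Their share of all miRNA counts was 1.05%, 0.851% and 0.563% in control cows 1 to 3 and 2.26%, 0.653% and 1.60% in tested cows 1 to 3. The highest shares were those of tested cows 1 and 3, while tested cow 2 lay between control cows 2 and 3, so the groups overlapped. The means were 0.822% ± 0.246 (SD, n = 3) for the control group and 1.502% ± 0.805 (SD, n = 3) for the tested group. They differed by 0.680 percentage points (two-sided exact permutation test, p = 0.3, 0.36 after adjustment over the 6 main exact tests, without the alternatives). With 3 cows per group, no p below 0.1 can be reached. Without tested cow 1 the difference was 0.303 percentage points, and without tested cow 2 it was 1.10 and the groups did not overlap. The libraries held between 1277693 and 2176002 miRNA counts, and the exact binomial 95% interval of the largest share ran from 2.23% to 2.28%. Such intervals cover counting error only, because PCR copies of a molecule are counted as separate reads. Of clean reads (those left after filtering), known miRNAs made up 10.77%, 15.71% and 18.01% in controls and 8.505%, 15.59% and 8.634% in tested cows. This fraction was lowest in tested cows 1 and 3, and its part in the shares above was not tested. The 18-nt rows held 0.1173%, 0.1376% and 0.1042% of clean reads in controls and 0.1998%, 0.1041% and 0.1437% in tested cows. The groups overlapped here too (difference 0.0295 percentage points, exact permutation test, p = 0.5).

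**Figure D1:**
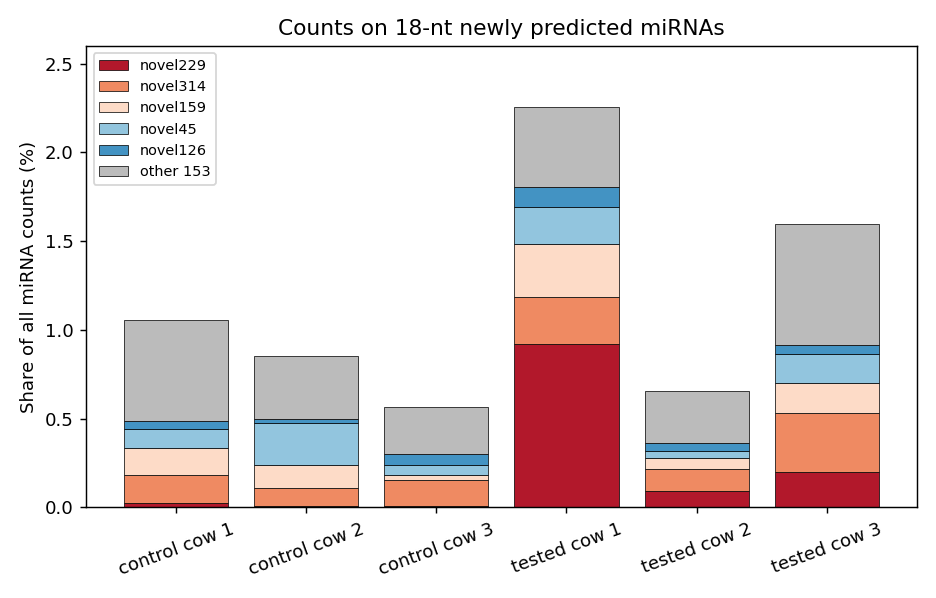
Share of all miRNA counts (%, vertical axis) held by the 18-nt newly predicted miRNAs in each of the 6 libraries (1 bar per cow, horizontal axis), split into the 5 leading miRNAs and the other 153. Tested cow 1 reaches 2.26%, and novel229_mature is the largest piece of its bar and a thin piece of the control bars.

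A few rows held most of the counts. The 4 with the most counts, novel314_mature (20752), novel229_mature (18361), novel45_mature (14619) and novel159_mature (14502), together held 55.9% of the 18-nt counts. At the other end, 81 rows (51.3%) had fewer than 100 counts over the 6 libraries and together held 2.00%. The number of rows needed to reach 90% of the 18-nt counts of a library was 29, 20 and 27 in controls and 14, 31 and 33 in tested cows. Tested cow 1 was the most concentrated library. The effective number of rows, the inverse of the summed squared shares, was 4.74 there and between 8.07 and 13.5 in the others.

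The 5 leading rows held 46.0%, 58.4% and 53.2% of the 18-nt counts in controls and 79.9%, 55.2% and 57.3% in tested cows. Outside tested cow 1, the tested cows lay within the control range. On average this share was 52.5% ± 6.22 (SD, n = 3) for control and 64.2% ± 13.7 (SD, n = 3) for tested cows, a difference within the spread between cows (two-sided exact permutation test, p = 0.3, adjusted 0.36). Without tested cow 1 the difference of 11.7 percentage points became 3.76. The 5 rows were ranked over both groups together. With the 5 leading rows of each library taken instead, the difference was 4.88 percentage points (exact permutation test, p = 0.8), and with the 10 leading rows it was 2.63 (p = 0.9). The leading row also changed between libraries. It was novel314_mature in 4 libraries, novel45_mature in control cow 2 and novel229_mature in tested cow 1.

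**Figure D2:**
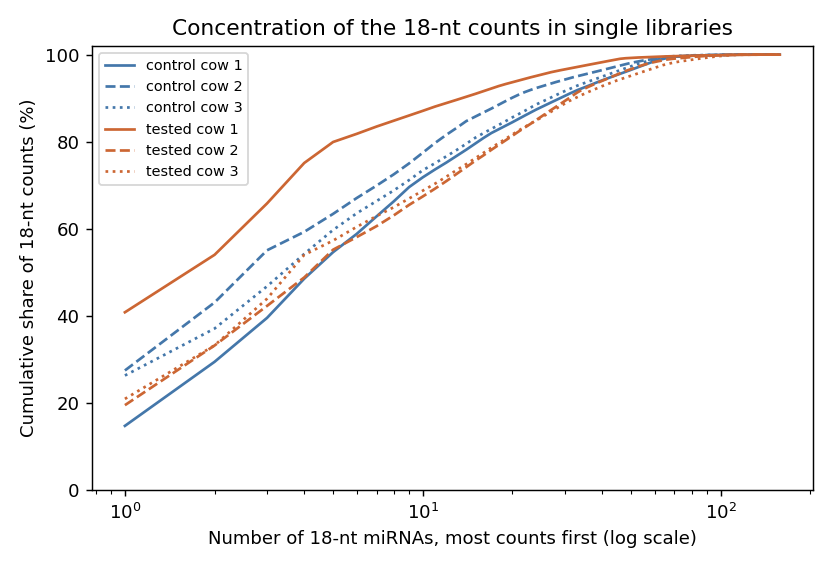
Cumulative share of the 18-nt counts (%, vertical axis) against the number of 18-nt miRNAs taken, most counts first (horizontal axis, log scale), with 1 line per library in blue for control and orange for tested cows. The line of tested cow 1 starts at 40.9% with a single miRNA, and the other 5 start between 14.8% and 27.5%.

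Among the leading rows, novel229_mature rose in the tested group. Its counts were 374, 120 and 100 in controls and 11775, 1720 and 4272 in tested cows. Each tested cow was above each control cow, and tested cow 1 was the highest. In CPM, which divide each count by the library total after scaling by TMM (trimmed mean of M-values), the tested mean was 35.2-fold the control mean, and 12.1-fold without tested cow 1. Without control cow 1 it was 71.0-fold. The log2 fold change was 5.14 and became 3.60 without tested cow 1. With all cows it had a standard error of 0.850, an unadjusted p of 4.3e-05 and an adjusted p = 0.0267 from edgeR. The adjusted p became 0.0895 without control cow 2 and 0.0733 without control cow 3. novel229_mature made up 2.23%, 0.682% and 0.869% of the 18-nt counts in controls and 40.9%, 13.7% and 12.3% in tested cows. Without this row, chosen for this step after its values were seen, the 18-nt share averaged 0.811% ± 0.238 (SD, n = 3) among control and 1.10% ± 0.465 (SD, n = 3) among tested cows (two-sided exact permutation test, p = 0.3). The difference fell from 0.680 to 0.289 percentage points. novel18_mature is the only other 18-nt row with the seed of novel229_mature, and it had 0 counts in controls and 11, 1 and 10 in tested cows (log2 fold change 6.05, standard error 2.89, adjusted p = 0.448 from edgeR), short of the threshold given below. Set against a floor of 3 counts for the control group, novel18_mature was at least 7.43-fold higher. It reached the 10 counts needed for testing only through the tested group, so it had to be higher there to be tested.

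For the other 9 leading rows the groups overlapped, and none passed. novel314_mature had 2474, 2106 and 3032 counts in controls and 3398, 2452 and 7290 in tested cows. On the log2 scale the difference was 0.76 (standard error 0.332), below the size needed to pass, at a p of 0.0385 before and 0.448 after Benjamini-Hochberg adjustment in edgeR. novel159_mature had 2461, 2747 and 633 counts in controls and 3803, 1140 and 3718 in tested cows, and novel45_mature 1687, 4838 and 1116 against 2677, 800 and 3501. Both had their lowest counts in control cow 3 and tested cow 2, so each group held a low cow. The log2 fold change of novel45_mature was 0.01 (standard error 0.542), and its sign turned with the scaling. novel354_mature had 1507 counts in control cow 1 and 62 and 51 in the other control cows, against 119, 125 and 531 in tested cows. Its log2 fold change was -1.34 (standard error 1.07) and became 2.15 without control cow 1 and 0.60 with the replicate number as a block, so its direction was not stable. For novel126_mature, novel24_mature, novel343_mature, novel258_mature and novel142_mature the log2 fold changes lay between -0.67 and 0.61, with adjusted p-values from edgeR of at least 0.625.

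**Figure D3:**
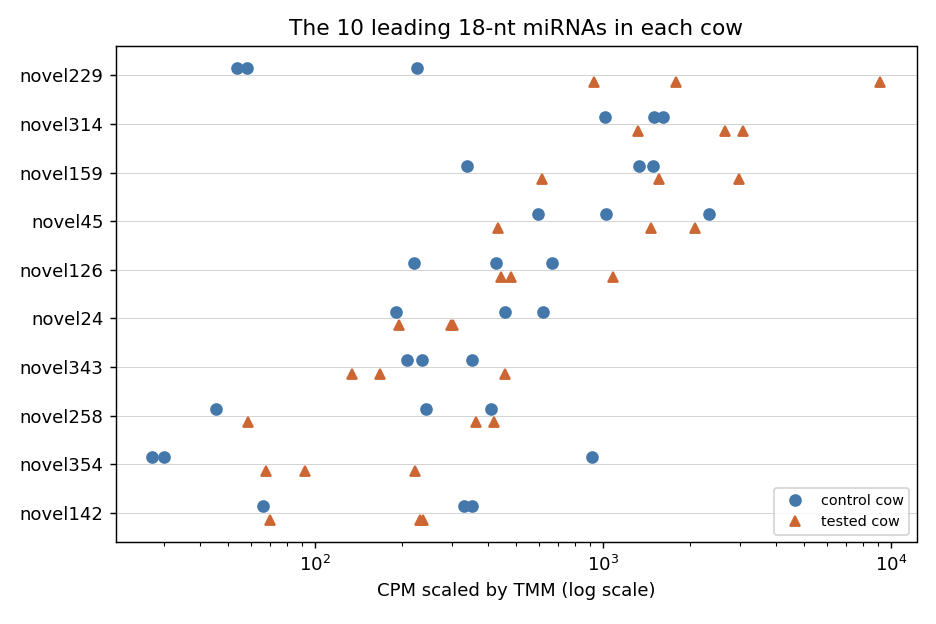
CPM scaled by TMM (horizontal axis, log scale) of the 10 leading 18-nt miRNAs (rows) in each cow, with circles for the 3 control cows and triangles for the 3 tested cows. The groups separate for novel229_mature and overlap for the other 9.

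Abundant and rare rows alike have close relatives in the table. A listed row within 2 edits, with an overlap of at least 14 bases at the ends, or with the whole sequence inside it, was found for 45 of the 158 rows. Beside the 22-nt novel309_mature, 7 of the 18-nt rows differ from its first 17 bases at a single position. They are shown from the most to the least abundant, with the differing base in capitals, because a leading 18-nt row and some of the rarest belong to the same set.
novel309_mature: gctggcaggggccccggaaaga
novel314_mature: gAtggcaggggccccggg
novel146_mature: gctggcaggggcAccggg
novel138_mature: gctggcGggggccccggg
novel11_mature: gctgTcaggggccccggg
novel156_mature: gctggcaggggcccAggg
novel26_mature: gctggAaggggccccggg
novel2_mature: gctggcaggggTcccggg
Counted from 1 at the 5′ end, with the base of novel309_mature first, novel314_mature carries C2A and novel146_mature C13A. The 6 rows beside novel314_mature had between 8 and 25 counts each and 106 in all, against 20752 for novel314_mature and 12612 for novel309_mature. They were noticed after their values were seen. novel126_mature starts 1 base earlier and shares 17 bases with novel309_mature. The counts of novel309_mature were 1344, 816 and 2475 in controls and 1228, 1371 and 5378 in tested cows, and like novel314_mature it was highest in tested cow 3. The palindrome GGGGCCCC, its own reverse complement, was present in 8 of the 158 rows (5.06%) and 11 of all 706 (1.56%), and those 8 rows held 23.3% of the 18-nt counts.

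novel45_mature shares its seed with 3 other 18-nt rows, novel189_mature, novel20_mature and novel283_mature. The 4 rows together had 14635 counts, of which novel45_mature held 14619. In all, the 158 rows have 146 distinct seeds, and 9 seeds are shared by 21 rows. How the authors' counting assigned reads among such near-identical sequences was not tested, so the values of single rows in these sets are uncertain.

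A different set of sequences carries letters of the A box, a part of the internal promoter of transfer RNA genes. Its sequence is kept in the mature transfer RNA. The forms searched on both strands were TGGCNNAGT and TAGCTCAG, and each is shown in capitals.
novel192_mature: ggagagaTGGCTGAGTgg
novel133_mature: ggagaggTGGCCGAGTgg
novel30_mature: ggaaaggTGGCAGAGTgg
novel354_mature: ggatgTAGCTCAGatggt
novel157_mature: gggatTAGCTCAGctggg
novel219_mature: tTAGCTCAGctggttaga
TGGCNNAGT was present in 3 of the 158 rows (1.90%) and in 7 of all 706 (0.992%), 3 of them known miRNAs. TAGCTCAG was present in 3 of the 158 (1.90%) and in 6 of all 706 (0.850%), none of them known. Neither was present in a reverse complement, and no row held both. A match of letters is a description and does not show where the reads came from. The 3 rows with TGGCNNAGT had counts in every library, 3616 in all, and the groups overlapped for each. novel192_mature had 304, 178 and 324 counts in controls and 229, 227 and 617 in tested cows.

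The seed of a known miRNA in the table was found in 10 of the 158 rows (6.33%), which held 3657 counts. The most abundant are shown with a known miRNA of the same seed in capitals.
novel288_mature: cGCGGCGGcgggcgcgcc
bta-miR-11975: gGCGGCGGcggcgccggggc
novel260_mature: aGAGAACTctggagaagg
bta-miR-146a: tGAGAACTgaattccataggttgt
novel47_mature: gGGACGGAggaggctagg
bta-miR-184: tGGACGGAgaactgataagggt
Outside the seed these sequences differ. novel260_mature, with the seed of bta-miR-146a, an miRNA known for damping innate immune signalling, had 264, 86 and 282 counts in controls and 345, 142 and 210 in tested cows. Its groups overlapped (log2 fold change 0.30, standard error 0.715). novel288_mature had 56, 746 and 187 counts in controls and 192, 26 and 344 in tested cows, a log2 fold change of -0.69 (standard error 0.923). For novel47_mature, 363 of its 391 counts were in tested cow 3, and the log2 fold change of 3.28 became -2.85 without that cow. novel337_mature>novel351_mature, a row with joined names and the seed of bta-miR-326, had 1, 34 and 59 counts in controls and 7, 0 and 67 in tested cows. novel99_mature, with the seed of bta-miR-1307, had 36, 7 and 0 against 0, 0 and 49. None of these 5 passed the threshold.

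Every one of the 158 rows had a count in at least 1 library, and 58 (36.7%) had counts in all 6. A further 31 rows were in 5 libraries, 20 in 4, 17 in 3, 20 in 2 and 12 in a single library. Control cows 1 to 3 showed 111, 109 and 98 of the 158 rows with any count, and tested cows 1 to 3 showed 127, 114 and 127. Each tested cow was above each control cow, with means of 106 ± 7.0 (SD, n = 3) and 122.7 ± 7.51 (SD, n = 3) (two-sided exact permutation test, p = 0.1, the smallest possible, adjusted 0.3). In libraries thinned to the smallest total, the control mean was 98.6 ± 8.66 (SD, n = 3) and the tested mean 119.1 ± 9.69 (SD, n = 3), also without overlap. Rows with at least 10 counts overlapped between the groups. Their number averaged 65.7 ± 2.89 (SD, n = 3) in control and 73.0 ± 26.2 (SD, n = 3), with the lowest value of all libraries, 51, in tested cow 1 and the highest in tested cow 3. A single count was seen for 29 of the rows in tested cow 1, against 11 to 21 in the others.

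In the same libraries the 18-nt rows had a higher mean detected share than the newly predicted miRNAs of 21 to 25 nt, a difference that did not pass after adjustment. The detected share was 72.4% ± 7.09 (SD, n = 6) against 61.0% ± 5.45 (SD, n = 6), higher in 6 of 6 libraries (two-sided exact sign-flip permutation test, p = 0.03125, the smallest possible, adjusted 0.1875). Requiring 5 counts narrowed the difference of 11.4 percentage points to 4.93. Against the newly predicted miRNAs of 19 to 20 nt the mean difference was -2.40 ± 5.63 percentage points (SD, n = 6; exact sign-flip permutation test, p = 0.4375). Against the known miRNAs it was 4.07 ± 7.40 (SD, n = 6; exact sign-flip permutation test, p = 0.25) and became -9.26 when 5 counts were required.

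Of the 12 rows seen in a single library, those with the most counts were novel231_mature with 85 and novel17_star>novel28_star with 44, both in tested cow 1, and novel173_mature with 35 in control cow 3. Against 3 counts over the other group, these are at least 28.7-fold and 14.9-fold higher and at least 11.5-fold lower in the tested group. Each of these differences rests on 1 cow.

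To ask which 18-nt miRNAs differed between the diets, all 623 miRNAs with at least 10 counts over the 6 libraries were tested together in edgeR by its quasi-likelihood test. To pass, a miRNA needed an unadjusted p below 0.05 and a log2 fold change above 1 in size. A positive value means more in the tested group. Of the 158 rows, 141 had enough counts to be tested, and the 17 left out had 1 to 8 counts each. Among the 141, 10 passed (7.09%), against 20 of all 623 (3.21%). Of the 10, 8 reached the minimum of 10 counts only through the group in which they were high, as did 15 of the 20. With both groups at their lower value, these 8 would not have been tested, so the share of 7.09% is given as a description. The exceptions among the 10 were novel229_mature and novel157_mature, 2 of the 85 18-nt rows with at least 10 counts in both groups or in neither (2.35%), against 5 of 413 over all miRNAs (1.21%). Of the 10, 7 rose, where 2.09% of all 623 did, and 3 fell, where 1.12% did. When the scaling and the test used only the newly predicted miRNAs, 14 of the 141 (9.93%) passed, 8 higher and 6 lower, against 34 of the 311 newly predicted miRNAs in that fit (10.9%). In that fit the share of the 18-nt rows was thus near that of the newly predicted miRNAs as a whole. Only novel229_mature had an adjusted p below 0.05, as did 0.161% of the 623. Without the condition on size, 11 of the 141 passed (7.80%), against 29 of the 623 (4.65%). In place of edgeR, DESeq2 passed 12 of the 141 (8.51%), 9 higher and 3 lower, of which 8 were among the 10, against 26 of the 623 (4.17%). The other 2 of the 10, novel209_mature and novel231_mature, were given no p by DESeq2.

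**Figure D4:**
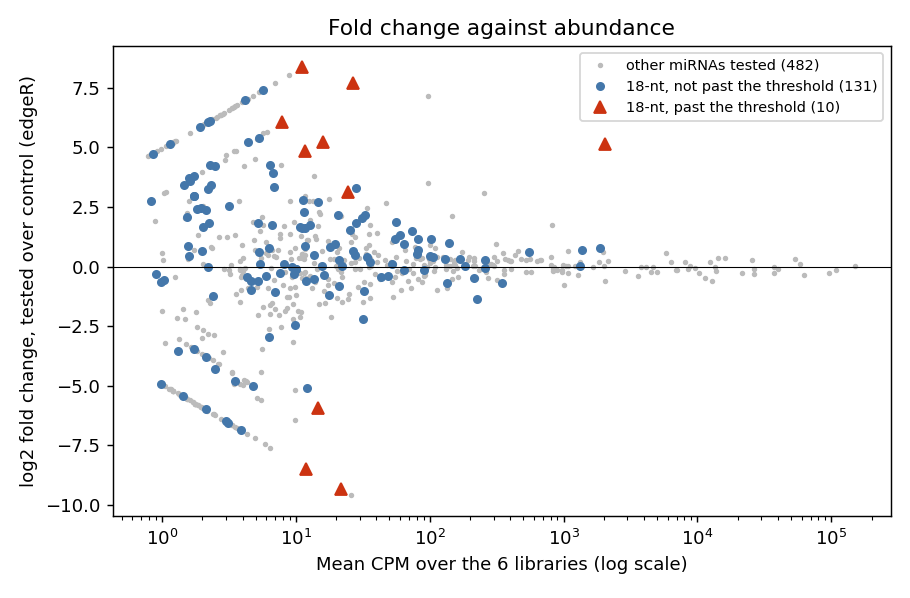
Log2 fold change of tested over control from edgeR (vertical axis) against the mean CPM over the 6 libraries (horizontal axis, log scale) for the 623 miRNAs tested, with 131 18-nt miRNAs in blue and the 10 past the threshold as red triangles. The 10 lie at low abundance except novel229_mature, and the slanted rows of points at the left are miRNAs with counts in a single group.

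The sequences of the other 9 that passed are shown with the seed in capitals.
novel201_mature: aGTGGATGaccttggctg
novel206_mature: tTTCTCGGctggtgcacc
novel180_mature: cCCGCGAGggggcggggc
novel223_mature: cCCGGGGCcgggagcggc
novel209_mature: tGACCTGTggctgggggt
novel231_mature: gCAGCTGCtaggaaggag
novel239_mature: gGGTGCGGgctgtggagt
novel63_mature: cTGGGGGGtagagcactg
novel157_mature: gGGATTAGctcagctggg
None of these 9 has the seed of a known miRNA in the table. All had between 85 and 345 counts over the 6 libraries.

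The 3 that fell were nearly absent from the tested cows. novel201_mature had 133, 12 and 84 counts in controls and 0 in every tested cow (log2 fold change -9.34, standard error 2.25, unadjusted p of 0.00165, adjusted p = 0.342 from edgeR). Set against a floor of 3 counts for the tested group, novel201_mature was at least 75.3-fold lower, a bound that ran from 42.8 to 113 with each cow left out and was 44.8 without control cow 1. novel180_mature had 82, 14 and 29 counts in controls and 0 in every tested cow (adjusted p = 0.448 from edgeR), at least 41.1-fold lower. Control cow 1 held 82 of its 125 counts, and without that cow the bound was 20.1-fold, the lowest with any cow left out. novel223_mature had 71, 27 and 58 counts in controls and 1, 1 and 0 in tested cows (log2 fold change -5.92, standard error 2.04, adjusted p = 0.448 from edgeR). Its ratio of control to tested was 77.0, with an exact binomial 95% interval of 20.96 to 641 from the summed counts. This interval leaves out the spread between cows. For all 3, each tested cow was below each control cow. novel180_mature and novel223_mature are 94.4% G+C and novel201_mature 55.6%. The call of novel223_mature was lost without control cow 1 (log2 fold change -5.53), while those of novel201_mature and novel180_mature held with any 1 cow left out.

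Among the 7 that rose, the groups did not overlap in CPM for novel229_mature, novel157_mature, novel209_mature, novel239_mature and novel63_mature. For novel63_mature, control cow 2 and tested cow 1 both had 1 count, and they differ in CPM only through the library totals. novel157_mature, with the letters TAGCTCAG, had 2, 3 and 23 counts in controls and 41, 110 and 99 in tested cows (log2 fold change 3.13, standard error 1.45, unadjusted p of 0.0495, adjusted p = 0.448 from edgeR). novel239_mature had 1, 1 and 2 counts against 51, 3 and 64. novel63_mature had 0, 1 and 0 against 1, 35 and 65. With each cow left out in turn, the log2 fold changes ran from 2.68 to 4.999, 4.19 to 5.40 and 5.41 to 7.80, and each of these 3 passed in 1 of the 6 cases. The case was without control cow 3 for novel157_mature, tested cow 2 for novel239_mature and tested cow 1 for novel63_mature. novel157_mature also lost its call in 5 other settings, with RLE factors (unadjusted p of 0.0545 from edgeR), with no filter, with newly predicted miRNAs only, with the replicate block and with at least 100 counts in all. novel239_mature lost its call with newly predicted miRNAs only and with the replicate block. novel209_mature had 3, 0 and 1 counts against 4, 159 and 9, and its log2 fold change of 5.22 was 2.06 without tested cow 2. It no longer passed then, nor without control cow 2 (4.69) or control cow 3 (5.07).

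The remaining 2 that rose did so in some tested cows. novel206_mature had 1, 0 and 0 counts in controls and 0, 133 and 211 in tested cows (log2 fold change 7.71, standard error 2.26, adjusted p = 0.448 from edgeR). Its ratio of tested to control was 348.5, with an exact binomial 95% interval of 62.1 to 13805 from the summed counts. The interval leaves out the spread between cows, and the ratio rests on the 1 count of control cow 1. The log2 fold change ran from 7.14 without tested cow 3 to 9.67 without control cow 1. novel231_mature had 85 counts in tested cow 1 and 0 in the other 5 libraries, so its groups overlap at 0. Its log2 fold change of 8.35 (standard error 3.45) is that of 1 library, and it did not pass without control cow 2 (8.41) or control cow 3 (8.32).

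**Figure D5:**
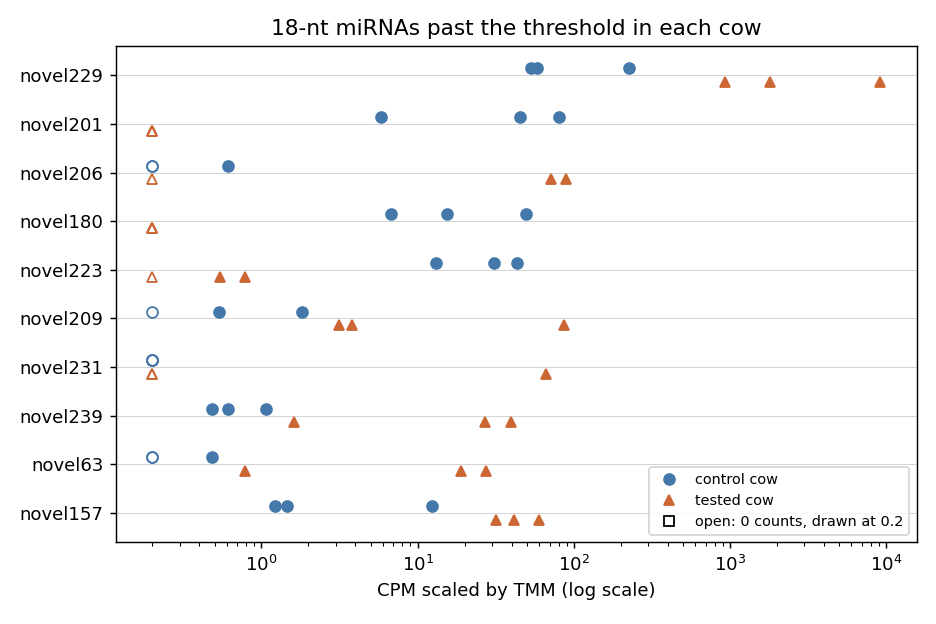
CPM scaled by TMM (horizontal axis, log scale) of the 10 18-nt miRNAs past the threshold (rows) in each cow, with circles for control and triangles for tested cows. Open symbols are libraries with 0 counts, drawn at 0.2 and lying on top of each other, and the 3 miRNAs that fell have tested cows there.

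Of these 10, 2 have a listed sequence that lies wholly inside that of a 19-nt row. The shared 18 bases are in capitals, and the partner is 1 base longer at the 3′ end.
novel201_mature: AGTGGATGACCTTGGCTG
novel305_mature: AGTGGATGACCTTGGCTGc
novel206_mature: TTTCTCGGCTGGTGCACC
novel208_mature: TTTCTCGGCTGGTGCACCt
In control cows 1 to 3 and tested cows 1 to 3, novel208_mature had 310, 61, 240, 97, 363 and 75 counts. novel206_mature and novel208_mature together had 612 counts over the control cows and 879 over the tested cows, against 1 and 344 for novel206_mature alone. novel201_mature and novel305_mature together had 526 and 525, against 229 and 0 for novel201_mature alone. The 18-nt rows differed between the groups by larger ratios than the pairs did. When every listed sequence that lies inside another was merged with it, 8 of the 139 18-nt rows tested passed, all of them among the 10, against 17 of all 613 (2.77%). novel209_mature also shares 15 bases with novel335_mature, which had 56, 0 and 38 counts in controls and 3, 1 and 95 in tested cows.

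Across the 141 rows, the median log2 fold change was 0.63, against 0.07 for all 623 miRNAs, and 91 of the 141 (64.5%) were above 0, against 53.5% of the 623. Leaving out tested cow 3 moved this median the most of the 6 cows. Leaving out control cow 1 raised it to 1.08, and leaving out control cow 2 to 0.97. Tested cow 3 had the highest CPM of the 6 libraries for 51 of the 141 rows (36.2%), against 82 of the 482 other miRNAs tested (17.01%). Without tested cow 3 the median of the 18-nt rows was 0.04, that of all miRNAs tested was -0.06, and 63 of 123 (51.2%) were above 0. When both the scaling and the fit used only the newly predicted miRNAs, the median was 0.22 and 76 of 141 (53.9%) were above 0, while the median of the newly predicted miRNAs of all lengths was -0.11. That tested cow 3 had 24187264 clean reads, against 11048676 to 14426224 in the other libraries, moved with this result, and its part in it was not tested.

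In CPM, each tested cow was above each control cow for 25 of the 141 rows (17.7%), against 8.03% of all 623, and below for 3 (2.13%), against 2.73%. In the counts themselves, 8 of the 25 were tied or overlapped and were separated only by the scaling to library totals, of which that of tested cow 1 was the smallest. The other 17 (12.1%) were above in counts too, against 5.46% of all 623. Most of the 25 were rare. Of these, 18 had fewer than 100 counts in all, 16 had at most 3 counts in the 3 control cows together, and 16 were highest in tested cow 3. Of the 141 rows, 38 reached 10 counts only through the tested group and 18 only through the control group. Those of them with few counts in the other group had to differ to be tested. Among the 77 rows with at least 100 counts, 7 (9.09%) were above in each tested cow, against 6.395% of the 344 miRNAs of that abundance, and the median log2 fold change was 0.46 against 0.13. Of the 5 rows with the smallest p among those that did not pass, novel314_mature and novel18_mature are described above, and the others rested on few counts. novel311_mature had 30, 11 and 0 counts in controls and 0 in tested cows, novel257_mature had 45 of its 46 counts in tested cow 2, and novel17_star>novel28_star had all 44 in tested cow 1 (adjusted p = 0.448 from edgeR for each).

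The rows with at least 80% G+C and the others are given apart, without a test. The 51 G+C-rich rows held 0.462%, 0.416% and 0.286% of all miRNA counts in controls and 1.72%, 0.365% and 0.920% in tested cows. The other 107 rows held 0.591%, 0.435% and 0.277% in controls and 0.535%, 0.288% and 0.677% in tested cows. Tested cow 1 was the highest for the first set and within the control range for the second, for which tested cow 3 was the highest. Without novel229_mature, which is among them, the G+C-rich rows held 0.439%, 0.410% and 0.281% in controls and 0.799%, 0.276% and 0.723% in tested cows. Of the 42 G+C-rich rows tested, 3 passed the threshold (7.14%), and of the 99 others, 7 did (7.07%), against 3.21% of all 623.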

How the data were processed

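Serum EV small RNA of 6 cows (3 control, 3 tested) was sequenced, 1 library per cow. Per the labels and methods, the authors trimmed and filtered reads (cutadapt 1.14 and Bowtie are named in the submitters' processing notes), matched them to the bovine genome (ARS-UCD1.2), set other RNA classes aside with BLAST and Rfam, and predicted further miRNAs with miRDeep2. The counting tool is not given in the sources used here. The authors deposited whole-number counts per miRNA without normalization, and a table of RPM values, labelled TPM, in which all 2937 values above 0 are a constant per library times the deposited count (relative tolerance 1e-06). The constants gave the clean reads. The authors' own fold changes, test scores and p-values, and their table of called miRNAs, were not used.

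The 18-nt rows were chosen by name and length. Members, lists and tests were chosen with earlier results of these data known. Groups were compared with edgeR 4.0.16 in R 4.3.3 (TMM, estimateDisp, glmQLFit, glmQLFTest) over 623 miRNAs with at least 10 counts in all, with Benjamini-Hochberg adjustment. Single measures were compared by exact permutation tests in Python 3.11.15 (NumPy 2.4.6, pandas 2.3.3, SciPy 1.17.1, Matplotlib 3.10.9). Nothing in the sources names further replication, so p-values measure the spread between these cows. Libraries held 1277693 to 2176002 counts. Bounds against a group at 0 use 3 counts over the group, and intervals are 95% exact binomial. Named rows are the 10 leading, those past the threshold, the 5 next by p, at most 5 nested in or holding another sequence, at most 5 with a known seed and the 3 most abundant of a single library. novel2_star, nested in novel96_mature with 1 count, was not tested. Other rows named as relatives or motif matches, and the novel309_mature set, were chosen after their values were seen. Alternatives were RLE factors, library sizes alone, no filter, filterByExpr, DESeq2 1.42.0, newly predicted miRNAs only, the replicate number as a block, nested sequences merged, each library left out, other totals, minimum counts and thinning (100 draws). Leaving out novel229_mature and a minimum of 100 counts in all were added after the data were seen. The fits were tested on simulated data.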

Additional observations from a re-analysis of the deposited data

How the results depend on the processing

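The count of 10 18-nt miRNAs past the threshold moved to 6 with filterByExpr, which tested 73 of them (3.74% of all miRNAs passed), and to 5 with the replicate number as a block (1.93% of all). It lay between 8 and 14 under the other settings with all cows (2.77% to 10.9% of all miRNAs in the same fits passed) and between 7 and 13 with each library left out (2.8% to 3.85% of all). Same-numbered cows did not deviate together (correlations of -0.06, -0.05 and -0.02 across miRNAs, none being the highest for its cow), so they share only a number. The 5 under the replicate block were all among the 10. The differences between the groups in share, detection and the 5 leading rows kept their direction under every setting, with ranges of 0.303 to 1.10 percentage points, 12.7 to 21 rows and 3.76 to 16.1 percentage points with each library left out, and as paired differences within replicate numbers had exact p-values of 0.5, 0.25 and 0.5. As a share of clean reads, the 18-nt rows held 0.120% ± 0.0168 (SD, n = 3) and 0.149% ± 0.0481 (SD, n = 3). Against the newly predicted miRNAs of 21 to 25 nt, the detected share differed by 4.93 percentage points with 5 counts required and by 9.54 to 13.1 with each library left out, where 5 libraries cannot reach the threshold. Against the known miRNAs it turned to -9.26 with 5 counts required. Of the named rows, novel229_mature, novel201_mature, novel180_mature and novel206_mature kept their calls wherever they were tested as 18-nt rows. The replicate block also ended the calls of novel157_mature, novel209_mature, novel231_mature, novel239_mature and novel63_mature. The adjusted p of novel229_mature was 0.196 with filterByExpr and with at least 100 counts in all, 0.0688 with library sizes alone, 0.0657 with newly predicted miRNAs only and 5.04e-08 with DESeq2. DESeq2 also gave adjusted p-values of 0.000588 for novel201_mature, 0.0129 for novel180_mature and novel223_mature and 0.0153 for novel206_mature. It gave no p for novel354_mature, novel209_mature and novel231_mature. The log2 fold change of novel45_mature was -0.10 with RLE factors and with DESeq2, -0.033 with no filter, -0.011 with filterByExpr, -0.40 with newly predicted miRNAs only, -0.038 with at least 100 counts and -0.47 to 0.72 with each library left out. Sign changes were also seen for novel343_mature (0.022 with library sizes alone), novel258_mature (-0.17 with newly predicted miRNAs only), novel260_mature (-0.087 with the same) and novel354_mature (0.60 with the replicate block). With each library left out, log2 fold changes ran from -0.78 to 0.24 for novel343_mature, -0.23 to 0.95 for novel258_mature, -2.00 to 2.15 for novel354_mature, -1.17 to 0.59 for novel288_mature, -0.51 to 0.59 for novel260_mature, -2.85 to 9.61 for novel47_mature, -2.56 to 0.38 for novel337_mature>novel351_mature and -6.88 to 1.98 for novel99_mature. The cause of these changes was not tested.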
